A study of Homo sapiens with 8 samples.

Results

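A set of 10 genes that mark or maintain pluripotent cells was followed in H1, an established line of human embryonic stem cells, after differentiation to islet-like cells. The set was PRDM14, LIN28A, LIN28B, POU5F1, NANOG, SOX2, DNMT3B, SALL4, TDGF1 and L1TD1, taken by symbol from a table of 38592 genes. All 10 were in the table, and 9 passed the filter on low counts that left 22184 genes for testing. NANOG did not pass it. The cells had lost PDX1, PAX6 or ISL1 by knockout (KO) or were unedited (WT). On day 11 of differentiation they were transduced with a vector carrying ISL1 and blue fluorescent protein (labelled ISL1 OE) or only the fluorescent protein (labelled BFP), and were harvested for RNA at day 18. All 8 groups thus carried a vector. There were 3 libraries each of ISL1 KO ISL1 OE, PAX6 KO ISL1 OE, ISL1 KO BFP, PAX6 KO BFP and PDX1 KO BFP. PDX1 KO ISL1 OE, WT ISL1 OE and WT BFP had 2 libraries each. The vector's promoter, and whether a knockout line was 1 clone, are not given in the sources used here.

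In pluripotent stem cells POU5F1, SOX2 and NANOG form the transcription factor circuit that holds the undifferentiated state, and PRDM14, a zinc finger protein of the PR domain family, binds many of the same genes and represses differentiation genes. SALL4 is a zinc finger partner of POU5F1, TDGF1 is a co-receptor for NODAL, DNMT3B is a DNA methyltransferase, and L1TD1 is an RNA-binding protein. LIN28A and LIN28B bind the precursors of the let-7 miRNAs and block their maturation, while mature let-7 represses LIN28 messages and other growth genes such as HMGA2. SOX2, SALL4 and LIN28B are also active outside pluripotent cells, SOX2 in the embryonic foregut and neural tube among others.

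The let-7 sequences and their matches in the set are shown because LIN28 proteins and let-7 act on each other. The mature let-7 sequences in the RefSeq table (GRCh38.p14), miR-98 included, were of 9 kinds, and all shared the seed, bases 2 to 8, in capitals in 2 of them below.
hsa-let-7a-5p: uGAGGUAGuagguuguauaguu
hsa-let-7g-5p: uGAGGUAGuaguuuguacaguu
The reverse complement of the seed, CTACCTC, was searched on the message strand of the 3′ UTR of 1 annotated principal transcript per gene (GENCODE 29, GRCh38). It stood in 3 of the 10 genes. LIN28B-201 had 4 matches in a 3′ UTR of 4549 bases, LIN28A-202 had 1 in 3264 bases and SALL4-201 had 1 in 1934 bases. The LIN28A match also lies in an exon of LIN28A-201, which held a median of 97.0% of the gene's estimated count, against 2.98% for LIN28A-202. Of 19108 genes searched, 8.59% had at least 1 match and 0.911% had at least 2. Of the known let-7 targets in the list used below, HMGA2-204 had 4 matches, TRIM71-201 had 6 and IGF2BP1-201 had 4. The matches are shown in capitals with their flanks. A match is a stretch of letters and not a measured site.
LIN28B at chr6:105078813-105078834, plus strand: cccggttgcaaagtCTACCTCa
LIN28B at chr6:105081240-105081261, plus strand: actgatgatagtaaCTACCTCt
LIN28B at chr6:105081422-105081443, plus strand: tttacagcaaaaggCTACCTCa
LIN28B at chr6:105082861-105082882, plus strand: aatgatggtgttgaCTACCTCt
LIN28A at chr1:26427349-26427370, plus strand: cacagcctattgaaCTACCTCa
SALL4 at chr20:51782923-51782944, minus strand: aagctttaatttatCTACCTCa
HMGA2 at chr12:65963299-65963320, plus strand: ccaacgttcgatttCTACCTCa

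The 21 libraries held 40959467 to 66818614 gene counts. Levels are counts scaled to a common library size (CPM, with TMM factors) or, between genes, length-scaled transcript levels (TPM), and changes are log2 fold changes ± SE from 1 edgeR quasi-likelihood fit over all libraries, called at an adjusted p under 0.05. PAX6 KO ISL1 OE replicate 3 and PDX1 KO ISL1 OE replicate 4 stood apart from the other libraries: within groups, the lowest correlation between libraries was 0.927 in the first group and 0.900 in the second, against at least 0.9815 in each of the other groups. Their median correlation with the other 20 libraries, whatever the group, was 0.9237 and 0.9057, against 0.9567 to 0.9703 for the other 19, among them the second PDX1 KO ISL1 OE library at 0.9699. Because the fit shares its spread over groups, calls are also given for the 19 libraries without these 2. Gene counts did not show the transduced ISL1. ISL1 had 61.6 to 84.0 CPM in ISL1 KO ISL1 OE and 64.7 to 72.0 CPM in ISL1 KO BFP, and 313 to 326 CPM in WT ISL1 OE and 285 to 484 CPM in WT BFP. Directions given for ISL1 OE therefore rest on the labels. In bulk RNA, fewer cells of a type and less RNA per cell cannot be told apart.

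Of the core pluripotency circuit, POU5F1 and NANOG were at or near 0, and so was TDGF1, while SOX2 and 6 other genes of the set were well detected. By median TPM over the 21 libraries the order was SOX2 (23.6), SALL4 (20.3), PRDM14 (19.6), LIN28B (12.02), DNMT3B (4.55), LIN28A (4.29), L1TD1 (2.06), POU5F1 (0.212), TDGF1 (0.0216) and NANOG (0.0179). The ranges of the first 4 overlapped, and so did those of DNMT3B, LIN28A and L1TD1. POU5F1 had 1 to 24 counts per library, and 4 libraries had 3 or fewer. NANOG had 0 to 14 counts, with 16 libraries at 3 or fewer and 3 at 0. TDGF1 had 0 to 16 counts, with 14 libraries at 3 or fewer and 10 at 0. The highest library had 0.447 CPM of POU5F1, 0.195 CPM of NANOG and 0.276 CPM of TDGF1. POU5F1 and TDGF1 were called in none of the 13 comparisons of the 21-library fit, and NANOG was not tested there. Copies whose reads could be mistaken for them were low too: POU5F1B reached 0.692 CPM, NANOGP8 reached 0.167 CPM and TDGF1P3 had at most 1 count.

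**Figure D1:**
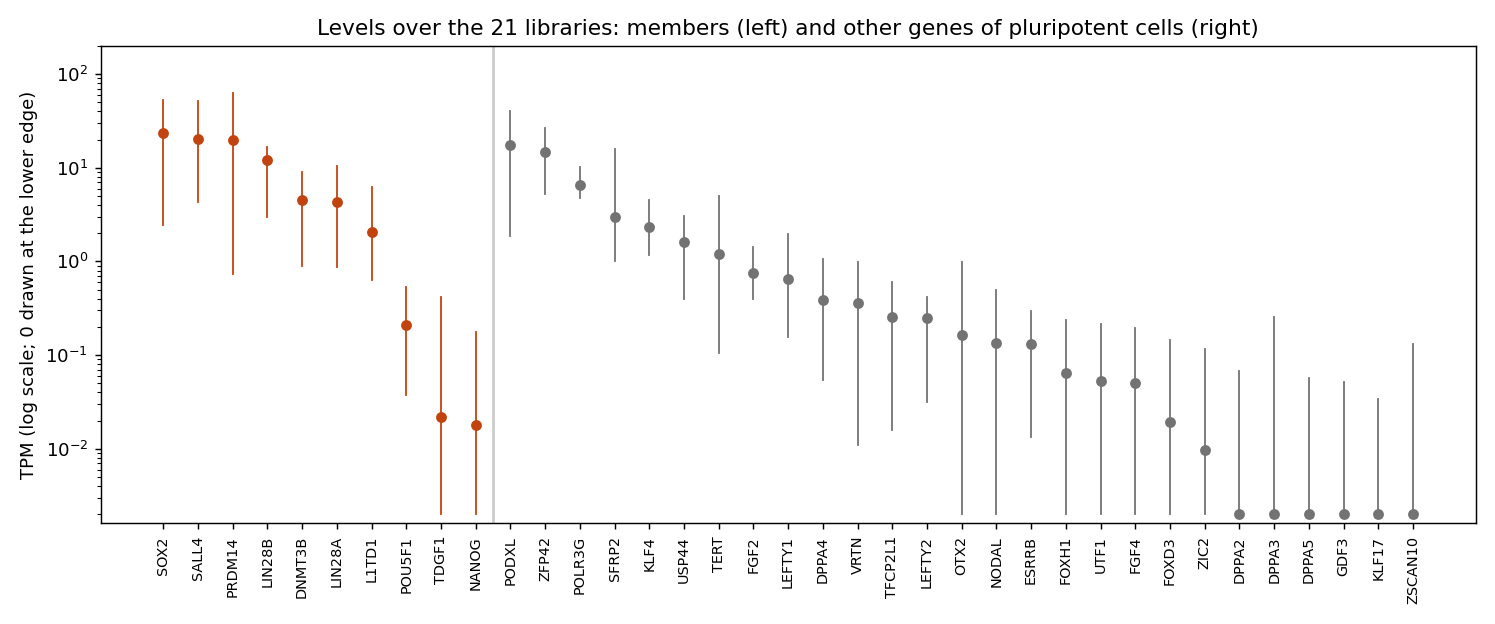
TPM on a log scale over the 21 libraries for the 10 genes of the set (left, orange) and for 27 other genes of pluripotent cells (right, grey); the point is the median and the line runs from the lowest to the highest library. SOX2, SALL4 and PRDM14 have medians near 20 TPM, whereas POU5F1, TDGF1 and NANOG stay under 1 TPM in every library.

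A wider list held 27 genes of pluripotent cells. Of these, 18 had a mean under 1 CPM, and DPPA2, DPPA5 and GDF3 never had more than 3 counts in a library. The best detected were PODXL, a surface sialomucin that other epithelia also make, with a median of 17.6 TPM, and ZFP42, a zinc finger gene also known as REX1, with a median of 14.7 TPM. Among the 18 that could be tested, none was called between ISL1 OE and BFP in ISL1 KO, PAX6 KO or WT cells (at most 0.424% of all genes). In PDX1 KO cells, where 14.4% of all genes were called, ZFP42 (0.78 ± 0.25, adjusted p = 0.0442) and KLF4 (1.37 ± 0.38, adjusted p = 0.0241) were higher with ISL1 OE. Among BFP libraries, PDX1 KO had 2 of the 18 higher and 3 lower than WT BFP, where 11.4% of all genes were called. The 2 higher ones were low: OTX2 had 0.860 to 1.10 CPM in PDX1 KO BFP and 0.0397 to 0.110 CPM in WT BFP (adjusted p = 0.0365), and ESRRB had 0.165 to 0.540 CPM in PDX1 KO BFP and 0.0199 to 0.0824 CPM in WT BFP (adjusted p = 0.0491). The 3 lower ones were the growth factor FGF2 (-1.34 ± 0.26, adjusted p = 0.00336), KLF4 (-1.88 ± 0.38, adjusted p = 0.00397) and POLR3G (-1.12 ± 0.32, adjusted p = 0.0308). ISL1 KO BFP had 1 higher, TERT (2.72 ± 0.75, adjusted p = 0.0376), and 2 lower, again FGF2 and KLF4, where 6.53% of all genes were called. PAX6 KO BFP had 0 higher and 1 lower, where 6.65% of all genes were called, and that gene was DPPA4 (-2.21 ± 0.61, adjusted p = 0.0378).

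PRDM14 was the gene of the set with the largest change beside the ISL1 vector. In ISL1 KO cells it had 74.5, 64.9 and 52.8 CPM in the libraries labelled ISL1 OE, against 2.49, 3.21 and 2.12 CPM in those labelled BFP. In WT cells it had 48.8 and 50.5 CPM with ISL1 OE, against 2.90 and 3.60 CPM with BFP. Every ISL1 OE library of these 2 genotypes stood far above every BFP library, with no overlap. The difference was 4.62 ± 0.64 on the log2 scale in ISL1 KO cells (adjusted p = 0.00314) and 3.94 ± 0.77 in WT cells (adjusted p = 0.107). The WT value was called in the 19-library fit, at almost the same size (3.95 ± 0.34, adjusted p = 1.51e-05). Beside PRDM14, the summed level of 12 foregut and stomach genes was 23.6 to 26.7 CPM in ISL1 KO ISL1 OE and 12.8 to 15.6 CPM in ISL1 KO BFP, and 34.2 to 35.9 CPM in WT ISL1 OE and 19.6 to 23.8 CPM in WT BFP, without overlap. Of the 8 of these genes that were tested none was called in either genotype. Their median fitted change was 1.10 in ISL1 KO and 1.61 in WT cells on the log2 scale, against -0.01 and -0.02 over all genes tested. In PAX6 KO BFP, where PRDM14 had 20.6 to 32.0 CPM, the foregut and stomach sum was 13.7 to 21.6 CPM and not above that of WT BFP. The part of these genes in the PRDM14 differences was not tested.

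In PDX1 KO cells PRDM14 had 33.6 CPM in ISL1 OE replicate 2 and 2.35 CPM in ISL1 OE replicate 4, against 3.93, 4.04 and 1.74 CPM in the BFP libraries. One ISL1 OE library was thus high and the other, which stood apart, lay within the BFP range. Replicate 4 also had the highest INS (44875 CPM) and GCG (94730 CPM) of all libraries, and a TMM factor of 0.707. Summed over 10 endocrine islet genes, replicate 4 had 160535 CPM and replicate 2 had 34729 CPM, against 58546 to 64369 CPM in PDX1 KO BFP. The part of this in the low PRDM14 of replicate 4 was not tested. The fitted difference was 2.48 ± 0.62 (adjusted p = 0.0162). It was 3.39 ± 0.32 (adjusted p = 5.47e-06) in the 19-library fit, which leaves 1 PDX1 KO ISL1 OE library, assumed to vary like the other groups. It was -0.39 (adjusted p = 0.482) without ISL1 OE replicate 2, and 2.18 (adjusted p = 0.0737) without BFP replicate 3. In PAX6 KO cells the level was 70.5, 53.2 and 41.4 CPM with ISL1 OE, against 32.0, 20.6 and 27.3 CPM with BFP. These groups did not overlap either, but both were high. The difference was 1.05 ± 0.56 (adjusted p = 0.504), and 1.23 ± 0.26 (adjusted p = 0.0131) in the 19-library fit. With the replicate number as a block the difference was 1.01 ± 0.25 (adjusted p = 0.0433). No other library shares its number with PDX1 KO ISL1 OE replicate 4, so the block fits that library exactly and takes it out of the spread. The part of pairing in this call was not tested.

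**Figure D2:**
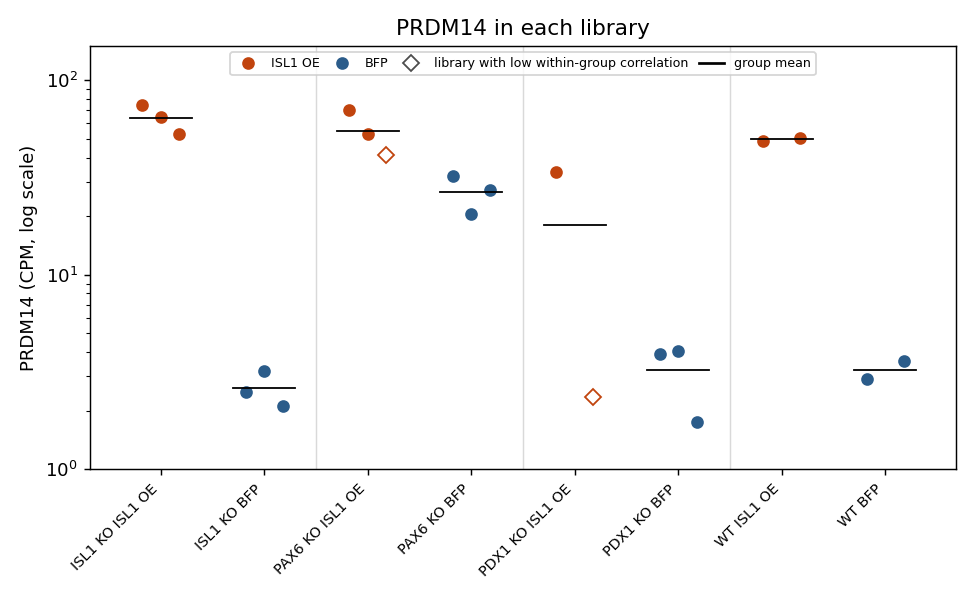
PRDM14 in CPM on a log scale, 1 point per library, with ISL1 OE groups (orange) left of the BFP group (blue) of the same genotype, black bars at group means, and open diamonds for the 2 libraries that stood apart. PAX6 KO BFP lies between 20.6 and 32.0 CPM, while the other 3 BFP groups lie between 1.74 and 4.04 CPM.

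PAX6 knockout went with high PRDM14 in the absence of the ISL1 vector. PAX6 KO BFP averaged 26.6 ± 5.73 CPM (SD, n = 3) and WT BFP 3.25 ± 0.495 CPM (SD, n = 2), a difference of 3.04 ± 0.71 (adjusted p = 0.0171) with no overlap. The call was lost without PAX6 KO BFP replicate 1 (2.88, adjusted p = 0.0536), WT BFP replicate 1 (2.92, adjusted p = 0.17) or WT BFP replicate 3 (3.22, adjusted p = 0.129). ISL1 KO BFP averaged 2.61 ± 0.553 CPM (SD, n = 3) and differed from WT BFP by -0.32 ± 0.63 (adjusted p = 0.855), and PDX1 KO BFP averaged 3.24 ± 1.3 CPM (SD, n = 3). The loss of ISL1 was thus not accompanied by a called change of PRDM14, with a 95% interval of -1.68 to 1.05 for the log2 difference (t quantile at the residual degrees of freedom). Among ISL1 OE libraries no knockout was called different from WT in PRDM14. Relative to WT ISL1 OE the difference was 0.37 ± 0.62 for ISL1 KO, 0.15 ± 0.62 for PAX6 KO and -1.46 ± 0.69 for PDX1 KO cells. From highest to lowest, the group means were 64.0 CPM in ISL1 KO ISL1 OE, 55.0 in PAX6 KO ISL1 OE, 49.7 in WT ISL1 OE, 26.6 in PAX6 KO BFP, 18.0 in PDX1 KO ISL1 OE, 3.25 in WT BFP, 3.24 in PDX1 KO BFP and 2.61 in ISL1 KO BFP. PAX6 KO ISL1 OE overlapped both ISL1 KO ISL1 OE and WT ISL1 OE, which did not overlap each other. The last 3 groups overlapped one another. Of the 2 PDX1 KO ISL1 OE libraries, one lay above PAX6 KO BFP and the other within the range of the low BFP groups.

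The vector effect in PAX6 KO cells minus that in WT cells was -2.89 ± 0.90 for PRDM14 and was not called (adjusted p = 0.889). In the 19-library fit the same difference of effects was -2.72 ± 0.42 and was called (adjusted p = 0.0268). The effect in ISL1 KO cells minus that in WT cells was 0.68 ± 0.89 (adjusted p = 1), and in PDX1 KO cells minus WT cells -1.46 ± 0.94 (adjusted p = 0.429).

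PRDM14 lies on chromosome 8 from 70051651 to 70071693 on the minus strand (GRCh38). Within 500 kb on either side, 4 other genes could be tested: SULF1, SLCO5A1, its antisense neighbour AC079089.1 and NCOA2. None of the 4 was called between ISL1 OE and BFP in ISL1 KO, PAX6 KO or WT cells. AC079089.1 was higher with ISL1 OE in PDX1 KO cells (1.31 ± 0.37, adjusted p = 0.027), where 14.4% of all genes were called. In ISL1 KO cells the nearest, NCOA2, 38.1 kb away, differed by 0.13 ± 0.41 and SLCO5A1 by 0.31 ± 0.26. In PAX6 KO BFP against WT BFP, NCOA2 differed by 0.33 ± 0.46 and SLCO5A1 by 0.57 ± 0.30, neither called. SULF1, a sulfatase of the cell surface, was lower in ISL1 KO BFP than in WT BFP (-2.33 ± 0.59, adjusted p = 0.0251) and lower than in WT ISL1 OE in ISL1 KO ISL1 OE (-3.08 ± 0.59) and PAX6 KO ISL1 OE (-2.82 ± 0.59). At least 99.9% of the estimated transcript count of PRDM14 fell on PRDM14-201 in every library. By the Pearson correlation of log2 CPM over the 21 libraries, which share vector and genotype, the genes most like PRDM14 among 15360 were VSIG1 (r = 0.941), an immunoglobulin-domain membrane protein of stomach epithelium, SLC4A4 (r = 0.923), a bicarbonate transporter, and COL19A1 (r = 0.908), a collagen. VSIG1 had 21.9 to 26.0 CPM in ISL1 KO ISL1 OE and 1.44 to 1.69 CPM in ISL1 KO BFP.

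Counts over the set followed the vector and the genotype unevenly. Between ISL1 OE and BFP, 2 of the 9 tested genes were called in ISL1 KO cells, PRDM14 and LIN28A, both higher, where 0.424% of all genes were called. In PDX1 KO cells 2 of 9 were called, PRDM14 and L1TD1, both higher, where 14.4% of all genes were called. None was called in PAX6 KO cells (0.415% of all genes) or in WT cells (0.0361%, or 8 genes). In the WT comparison 844 genes had an unadjusted p under 0.05, and DESeq2 called 63 genes and 1 gene of the set. In PAX6 KO cells 2379 genes had an unadjusted p under 0.05 and DESeq2 called 486 genes and 0 of the set. In the 19-library fit, with all 10 genes testable, the calls were 5 in ISL1 KO (5.92% of all genes), 2 in PAX6 KO (6.02%), 3 in PDX1 KO (11.2%) and 1 in WT cells (1.69%), all of them higher with ISL1 OE. The median log2 change over the 9 genes was 1.32 for ISL1 KO, 0.67 for PAX6 KO, 0.29 for PDX1 KO and 0.49 for WT cells, against -0.01, 0.05, 0.07 and -0.02 over all genes tested. One of the 9, TDGF1, passed the filter on low counts through PAX6 KO ISL1 OE, where it had 16, 9 and 11 counts. Its place in the PAX6 KO median is thus not independent of the filter. The set was chosen with earlier results of these data known, so the medians describe it and test nothing.

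SOX2 was higher in PAX6 KO and PDX1 KO cells than in WT cells. It had 38.1, 27.8 and 45.9 CPM in PAX6 KO BFP and 30.7, 39.5 and 46.3 CPM in PDX1 KO BFP, against 4.21 and 7.33 CPM in WT BFP. No library of either knockout came near the WT range. The difference was 2.69 ± 0.49 in PAX6 KO (adjusted p = 0.00398) and 2.75 ± 0.49 in PDX1 KO cells (adjusted p = 0.00195). Without WT BFP replicate 1 the PAX6 KO call was lost (2.38, adjusted p = 0.0859). ISL1 KO BFP, with 11.9, 11.3 and 14.7 CPM, also lay above both WT libraries, but the difference of 1.13 ± 0.46 was not called (adjusted p = 0.159). It was called in the 19-library fit at the same size (adjusted p = 0.00462).

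With the ISL1 vector SOX2 had 32.7, 38.5 and 43.7 CPM in ISL1 KO cells and 66.3, 45.4 and 127 CPM in PAX6 KO cells, against 10.2 and 10.8 CPM in WT cells. Both knockouts stood above WT in every library (1.86 ± 0.47, adjusted p = 0.0322 for ISL1 KO, and 2.91 ± 0.49, adjusted p = 0.0028 for PAX6 KO). The ISL1 KO call was lost without any 1 of its 5 libraries (1.76 to 1.96, adjusted p = 0.0588 to 0.25), and the PAX6 KO call without WT ISL1 OE replicate 1 (2.87, adjusted p = 0.0631). The 127 CPM came from the PAX6 KO library that stood apart. PDX1 KO ISL1 OE, with 34.5 and 10.3 CPM, overlapped WT ISL1 OE (1.09 ± 0.48, adjusted p = 0.28). The 10.3 CPM came from the library that stood apart, and in the 19-library fit the difference was called (1.71 ± 0.32, adjusted p = 0.00296). Between ISL1 OE and BFP the difference was 1.6 ± 0.4 in ISL1 KO (adjusted p = 0.112, and 0.000463 in the 19-library fit), 1.09 ± 0.39 in PAX6 KO, 0.87 ± 0.49 in WT and -0.79 ± 0.45 in PDX1 KO cells, none of them called. With the replicate block, which also takes the PDX1 KO library that stood apart out of the spread, the PAX6 KO value was 1.02 ± 0.22 (adjusted p = 0.0225). In the 19-library fit it was 0.59 ± 0.24 and not called (adjusted p = 0.158).

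SOX2 is also active in neural progenitors. Of 12 neural genes tested, 2 were higher in PAX6 KO BFP, 5 in PDX1 KO BFP and 3 in ISL1 KO BFP than in WT BFP, and 0 were lower, where 6.65%, 11.4% and 6.53% of all genes were called. Their median log2 difference was 0.38 in PAX6 KO, 0.73 in PDX1 KO and 0.01 in ISL1 KO cells. Among them was SOX1, the neural relative of SOX2, at 3.86 ± 0.53 in PDX1 KO (adjusted p = 0.0004) and 2.38 ± 0.50 in ISL1 KO cells (adjusted p = 0.00843). SOX21, another relative, was higher in PAX6 KO BFP (3.23 ± 0.68, adjusted p = 0.00942). The summed level of the 12 neural genes was 527 to 801 CPM in PAX6 KO BFP and 729 to 854 CPM in PDX1 KO BFP, 527 to 680 CPM in ISL1 KO BFP and 363 to 526 CPM in WT BFP. By median over the 21 libraries the largest genes of this sum were TUBB3 (227 CPM) and STMN2 (216 CPM). SOX1 (1.64 CPM), SOX3 (0.241 CPM) and NES (3.04 CPM) were low, so the sum mostly followed TUBB3 and STMN2 and says little about progenitors. The 12 foregut and stomach genes, of which NKX2-1, MUC5AC and GKN1 never had more than 3 counts, summed to 13.7 to 21.6 CPM in PAX6 KO BFP and 32.4 to 51.3 CPM in PDX1 KO BFP, and 19.6 to 23.8 CPM in WT BFP. The part of either list in the SOX2 differences was not tested. SOX2-OT, the RNA within which SOX2 lies, reached no more than 1.14 CPM in any library, though it too was higher in PDX1 KO BFP (2.54 ± 0.71, adjusted p = 0.0281). The genes most like SOX2 over the 21 libraries were PHF21B (r = 0.877), YPEL1 (r = 0.872) and IFT81 (r = 0.870).

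Between knockout and WT in BFP cells, 2 of the 9 genes were called in PAX6 KO, PRDM14 and SOX2, both higher (6.65% of all genes were called). In PDX1 KO 2 were called, SOX2 higher and DNMT3B lower (11.4%), and in ISL1 KO none (6.53%, with 4557 genes at an unadjusted p under 0.05, and 2 of the set by DESeq2). In the 19-library fit the counts were 3 higher in PAX6 KO (28.8%), 1 higher and 3 lower in PDX1 KO (33.3%) and 2 higher and 2 lower in ISL1 KO cells (28.5%). Among ISL1 OE libraries SOX2 alone was called, higher, in ISL1 KO (4.13%) and in PAX6 KO cells (4.26%), and LIN28A alone, lower, in PDX1 KO cells (0.78%). In the 19-library fit these counts were 2 higher in ISL1 KO (23.7%), 2 higher in PAX6 KO (14.5%) and 1 higher and 1 lower in PDX1 KO cells (7.9%). For the vector effect in a knockout minus that in WT, none of the set was called in ISL1 KO (0.00451%), PAX6 KO (0%) or PDX1 KO cells (1.37%). At an unadjusted p under 0.05 these had 651, 750 and 3731 genes, and DESeq2 called 21, 10 and 1192 genes and none of the set. In the 19-library fit none was called for ISL1 KO (0.313%) or PDX1 KO (3.28%), and PRDM14 was called lower for PAX6 KO (0.0565%).

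**Figure D3:**
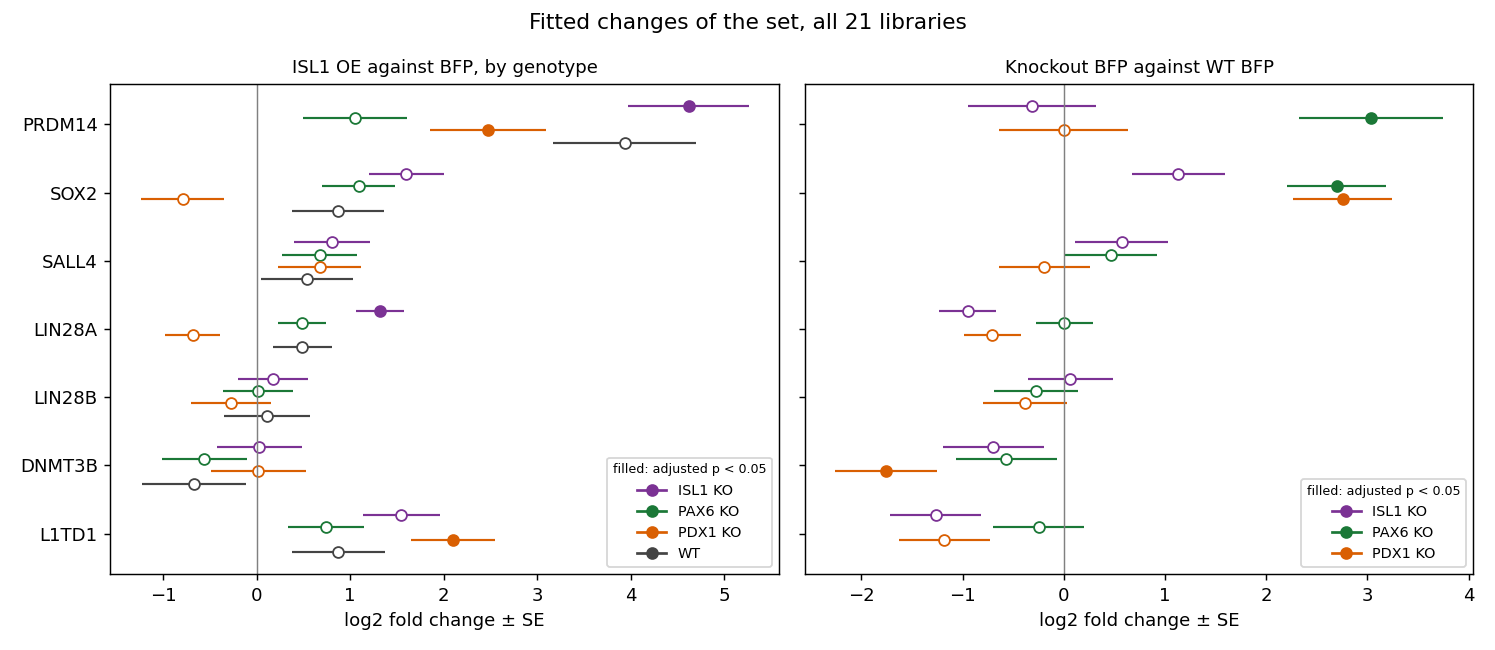
Log2 fold change ± SE from the 21-library fit for the 7 well detected genes, for ISL1 OE against BFP within each genotype (left panel) and for each knockout against WT among BFP libraries (right panel); filled points were called at an adjusted p under 0.05. PRDM14 lies highest in the left panel, at 4.62 in ISL1 KO cells, and SOX2 lies near 2.7 for PAX6 KO and PDX1 KO in the right panel.

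Because SOX2 and DNMT3B were called in opposite directions in PDX1 KO BFP, 1 promoter window of each is shown. It runs from 250 bases before to 50 after a start in RefSeq (GRCh38.p14). The homeodomain core TAAT is in capitals, read on both strands. ISL1, PAX6 and PDX1 each contain a homeodomain, the DNA-binding fold that prefers this core.
SOX2 at chr3:181711675-181711974, plus strand: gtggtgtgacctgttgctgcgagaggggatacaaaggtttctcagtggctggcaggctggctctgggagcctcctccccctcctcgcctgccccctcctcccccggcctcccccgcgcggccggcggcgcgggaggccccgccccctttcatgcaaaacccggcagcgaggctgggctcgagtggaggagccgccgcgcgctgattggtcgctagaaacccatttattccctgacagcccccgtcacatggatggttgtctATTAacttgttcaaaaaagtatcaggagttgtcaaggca
DNMT3B at chr20:32779602-32779901, plus strand: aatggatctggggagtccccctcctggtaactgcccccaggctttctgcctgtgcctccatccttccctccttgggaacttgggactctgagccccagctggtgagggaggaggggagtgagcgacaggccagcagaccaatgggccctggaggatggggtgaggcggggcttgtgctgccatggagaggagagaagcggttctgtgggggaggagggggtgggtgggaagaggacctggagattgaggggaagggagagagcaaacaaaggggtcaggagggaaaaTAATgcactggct
Each window held 1 copy. Of the other windows found for the set, that of L1TD1 held 0, that of NANOG 3, and the 2 of LIN28B, which was called in no comparison, 4 and 0. Of all 35116 promoters in the table, 50.2% held at least 1.

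SALL4 was higher with ISL1 OE than with BFP in every library of the ISL1 KO and WT cells, and in PAX6 KO and PDX1 KO cells in every library but the 2 that stood apart. The 21-library fit called none of these differences, and the 19-library fit called 3 of 4. It had 96.4, 91.0 and 78.9 CPM in ISL1 KO ISL1 OE, against 57.2, 55.6 and 39.9 CPM in ISL1 KO BFP. In PAX6 KO cells it had 105, 87.6 and 33.3 CPM with ISL1 OE, against 50.04, 53.0 and 38.5 CPM with BFP. In PDX1 KO cells it had 77.5 and 18.3 CPM with ISL1 OE, against 27.9, 29.9 and 32.3 CPM with BFP. The 33.3 and 18.3 CPM, each under its BFP group, came from the libraries that stood apart. WT cells had 50.9 and 48.8 CPM with ISL1 OE, against 33.5 and 34.9 CPM with BFP. These groups did not overlap. In the 21-library fit the difference ran from 0.54 ± 0.49 in WT to 0.80 ± 0.40 in ISL1 KO cells and none was called. In the 19-library fit it was 0.82 ± 0.14 in ISL1 KO (adjusted p = 0.0025), 1.04 ± 0.16 in PAX6 KO (adjusted p = 0.00171), 1.39 ± 0.19 in PDX1 KO (adjusted p = 0.000144, 1 library) and 0.55 ± 0.18 in WT cells (adjusted p = 0.164). That fit also called SALL4 higher than in WT BFP in ISL1 KO BFP (0.56 ± 0.16, adjusted p = 0.0159) and PAX6 KO BFP (0.47 ± 0.16, adjusted p = 0.0368). It called SALL4 higher than in WT ISL1 OE in ISL1 KO ISL1 OE (0.83 ± 0.16, adjusted p = 0.00167) and PAX6 KO ISL1 OE (0.96 ± 0.17, adjusted p = 0.00142). The main transcript SALL4-201 held a median of 83.6% of the gene's estimated count and SALL4-203 15.9%. The share of SALL4-203 was 15.8% to 17.5% in WT ISL1 OE and 23.5% to 25.01% in WT BFP. In ISL1 KO, PAX6 KO and PDX1 KO cells its ranges with ISL1 OE and with BFP overlapped. The genes most like SALL4 were ZNF69 (r = 0.966), CCDC14 (r = 0.965) and LINC02038 (r = 0.961).

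LIN28A, which like LIN28B blocks let-7 maturation, was higher with ISL1 OE in ISL1 KO cells. It had 11.9, 11.6 and 15.7 CPM in ISL1 KO ISL1 OE, against 4.90, 4.56 and 6.26 CPM in ISL1 KO BFP. The groups did not overlap, and the difference was 1.32 ± 0.26 (adjusted p = 0.0261). The call was lost without any 1 of the 6 libraries compared (adjusted p = 0.0733 to 0.152), although the size stayed between 1.17 and 1.47. PDX1 KO cells ran the other way, with 3.33 and 4.40 CPM in ISL1 OE, against 7.74, 4.91 and 5.98 CPM in BFP. These groups did not overlap, but the difference of -0.69 ± 0.29 was not called (adjusted p = 0.12). WT cells had 12.1 and 16.4 CPM with ISL1 OE and 9.27 and 11.0 CPM with BFP (0.49 ± 0.31, adjusted p = 1). PAX6 KO cells had 18.8, 13.9 and 9.94 CPM with ISL1 OE and 8.31, 10.4 and 11.8 CPM with BFP (0.48 ± 0.25, adjusted p = 0.501), and their groups overlapped.

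Between genotypes, LIN28A was lower in PDX1 KO ISL1 OE than in WT ISL1 OE (-1.88 ± 0.32, adjusted p = 0.0139), and both PDX1 KO libraries lay under both WT libraries. The call was lost without WT ISL1 OE replicate 1 (-2.09, adjusted p = 0.105) or replicate 2 (-1.62, adjusted p = 0.162), and without the PDX1 KO library that stood apart the difference was -2.10 ± 0.34 (adjusted p = 0.00105). ISL1 KO BFP lay under WT BFP by -0.95 ± 0.28 (adjusted p = 0.0529), which was called in the 19-library fit (adjusted p = 0.00498). That fit also called PDX1 KO BFP lower than WT BFP (-0.73 ± 0.23, adjusted p = 0.0209). PAX6 KO BFP differed from WT BFP by 0.01 ± 0.28 (adjusted p = 0.995). LIN28A-201 held a median of 97.0% of the gene's count. The genes most like LIN28A were TINCR (r = 0.791), GARNL3 (r = 0.776) and NEFL (r = 0.761).

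LIN28B, the relative of LIN28A, was called in none of the 13 comparisons, in either fit. It had 38.4 to 49.98 CPM in ISL1 KO ISL1 OE and 31.9 to 47.3 CPM in ISL1 KO BFP, 11.9 to 43.6 CPM in PAX6 KO ISL1 OE and 24.2 to 36.6 CPM in PAX6 KO BFP, 14.1 to 34.4 CPM in PDX1 KO ISL1 OE and 24.3 to 34.5 CPM in PDX1 KO BFP, and 40.7 to 42.3 CPM in WT ISL1 OE and 35.6 to 41.1 CPM in WT BFP. The values of 11.9 and 14.1 CPM were the lowest of all and came from the 2 libraries that stood apart. In those libraries the share of the transcript LIN28B-202 was 12.4% and 9.44%, against 0% to 0.145% in the other 19. LIN28B-201, which carries the 4 let-7 seed matches printed above, held 79.2% to 95.3%. Between ISL1 OE and BFP the largest difference was -0.27 ± 0.42, in PDX1 KO cells. The genes most like LIN28B were WDR3 (r = 0.973), MSH6 (r = 0.965) and SLC23A2 (r = 0.959). These fell to r = 0.844 to 0.922 over the 19 libraries.

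Of 23 other genes of the let-7 pathway tested, 0 were called between ISL1 OE and BFP in ISL1 KO, PAX6 KO and WT cells, where at most 0.424% of all genes were called, and 1 in PDX1 KO cells, where 14.4% were. The 1 was HMGA2, a chromatin protein and let-7 target, with 5.89 to 6.5 CPM in PDX1 KO ISL1 OE and 1.1 to 1.65 CPM in PDX1 KO BFP (2.25 ± 0.35, adjusted p = 0.000946). In each of the other genotypes, too, every ISL1 OE library lay above every BFP library in HMGA2. It had 13.1 to 14.6 CPM in ISL1 KO ISL1 OE and 5.76 to 9.38 CPM in ISL1 KO BFP, 7.29 to 10.7 CPM in PAX6 KO ISL1 OE and 3.42 to 6.47 CPM in PAX6 KO BFP, and 7.48 to 11.1 CPM in WT ISL1 OE and 2.14 to 4.47 CPM in WT BFP. The differences were not called (0.97 ± 0.31, adjusted p = 0.25 in ISL1 KO, 1.01 ± 0.31, adjusted p = 0.203 in PAX6 KO, and 1.48 ± 0.38, adjusted p = 0.415 in WT cells). In PDX1 KO BFP, HMGA2 (-1.35 ± 0.35, adjusted p = 0.0183) and TRIM71, an RNA-binding let-7 target (-1.34 ± 0.37, adjusted p = 0.027), were lower than in WT BFP. HMGA1, the relative of HMGA2, was higher in ISL1 KO than in WT cells both with BFP (0.93 ± 0.24, adjusted p = 0.0292) and with ISL1 OE (1.02 ± 0.24, adjusted p = 0.025). The mature let-7 miRNAs themselves were not measured. MIRLET7BHG, the host RNA of let-7a-3 and let-7b, had at most 0.1995 CPM in any library.

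DNMT3B and L1TD1 were the least abundant of the 7 beside LIN28A. DNMT3B had 6.86, 4.09 and 4.42 CPM in PDX1 KO BFP, against 21.0 and 13.5 CPM in WT BFP, without overlap (-1.75 ± 0.50, adjusted p = 0.032). The call was lost without PDX1 KO BFP replicate 2 (-1.61, adjusted p = 0.11) or 3 (-1.66, adjusted p = 0.11), and without WT BFP replicate 1 (-1.38, adjusted p = 0.279) or 3 (-2.03, adjusted p = 0.0635). It was called in no comparison of ISL1 OE with BFP, where the difference ran from -0.67 ± 0.56 in WT to 0.03 ± 0.45 in ISL1 KO cells. Its lowest value, 1.98 CPM, was in the PAX6 KO ISL1 OE library that stood apart. DNMT3B was closest to ZNF215 (r = 0.926), PDK1 (r = 0.914) and MERTK (r = 0.910). Between ISL1 OE and BFP, 14.4% of all genes were called in PDX1 KO cells and at most 0.424% in the other genotypes. Of 17 genes of DNA methylation and partners of PRDM14 and SALL4, 1 was called in PDX1 KO cells and 0 in the others. It was DNMT3L, a cofactor of DNMT3 enzymes, with 23 counts over the 2 PDX1 KO ISL1 OE libraries and 1 count over the 3 PDX1 KO BFP libraries (adjusted p = 0.023), and no library reached more than 0.461 CPM of it. CBFA2T2, the corepressor that binds PRDM14, had 46.3 to 123 CPM over all libraries and was not called. ZBTB16 was higher in PAX6 KO than in WT cells with BFP (0.93 ± 0.23, adjusted p = 0.0242) and with ISL1 OE (1.72 ± 0.24, adjusted p = 0.000644).

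L1TD1 had 13.2 and 11.4 CPM in PDX1 KO ISL1 OE, against 4.44, 2.75 and 1.399 CPM in PDX1 KO BFP. Here both ISL1 OE libraries were high, the one that stood apart included, and the difference was 2.10 ± 0.45 (adjusted p = 0.00679). In ISL1 KO cells it had 9.64, 9.51 and 4.51 CPM with ISL1 OE, against 2.56, 3.47 and 2.08 CPM with BFP, again without overlap (1.55 ± 0.41, adjusted p = 0.145, and 0.0214 in the 19-library fit). WT cells had 9.08 and 14.7 CPM with ISL1 OE and 7.70 and 5.27 CPM with BFP (0.87 ± 0.49, adjusted p = 1). PAX6 KO cells had 9.46, 12.03 and 5.97 CPM with ISL1 OE and 4.25, 7.65 and 4.52 CPM with BFP (0.74 ± 0.40, adjusted p = 0.516). Among BFP libraries L1TD1 was called lower than in WT by the 19-library fit in ISL1 KO (-1.28 ± 0.41, adjusted p = 0.0292) and PDX1 KO cells (-1.20 ± 0.41, adjusted p = 0.0339). The genes most like L1TD1 were ACKR3 (r = 0.906), ARHGAP8 (r = 0.892) and AC007325.2 (r = 0.882).

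**Figure D4:**
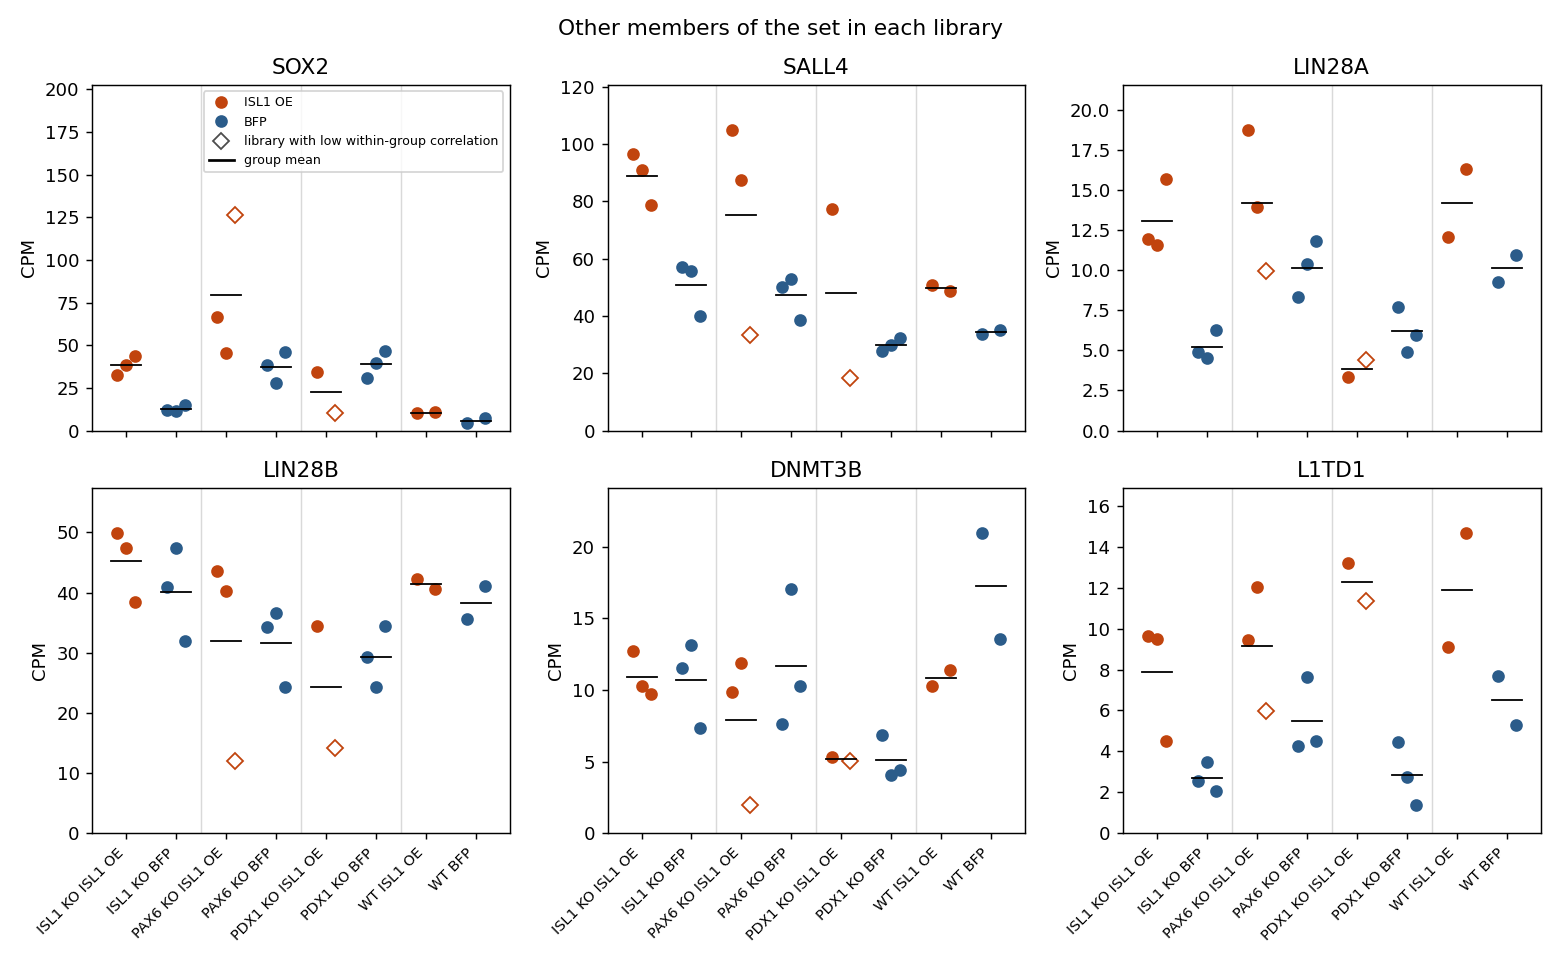
CPM of SOX2, SALL4, LIN28A, LIN28B, DNMT3B and L1TD1 in each library, with ISL1 OE groups (orange) left of the BFP group (blue) of the same genotype, black bars at group means and open diamonds for the 2 libraries that stood apart. SOX2 is lowest in WT BFP at 4.21 and 7.33 CPM, and the diamonds hold the lowest SALL4 and LIN28B values of their groups.

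Markers of other cells moved beside some of these changes. Of 10 genes of dividing cells, 5 were higher in PDX1 KO ISL1 OE than in PDX1 KO BFP, where 14.4% of all genes were called. In PDX1 KO BFP 4 of the 10 were lower than in WT BFP, where 11.4% of all genes were called. None was called between ISL1 OE and BFP in the other genotypes, where their summed level was 957 to 1214 CPM in ISL1 KO ISL1 OE and 653 to 933 CPM in ISL1 KO BFP, and 535 to 685 CPM in WT ISL1 OE and 405.5 to 612.5 CPM in WT BFP. The 12 foregut and stomach genes summed to 25.8 to 44.2 CPM in PAX6 KO ISL1 OE and 13.7 to 21.6 CPM in PAX6 KO BFP, and to 77.7 to 376 CPM in PDX1 KO ISL1 OE and 32.4 to 51.3 CPM in PDX1 KO BFP. In the PDX1 KO ISL1 OE library with the highest sum, CLDN18 alone had 272 CPM. Of the 8 of these genes tested, 4 were higher in PDX1 KO ISL1 OE than in PDX1 KO BFP (14.4% of all genes were called). They were led by the trefoil peptide TFF2 (4.05 ± 0.43, adjusted p = 6.92e-05). In PAX6 KO cells, where 0.415% of all genes were called, 1, again TFF2, was higher with ISL1 OE than with BFP (1.84 ± 0.38, adjusted p = 0.0426). Of 8 genes of pancreatic progenitors and duct, 4 were higher in PDX1 KO ISL1 OE than in PDX1 KO BFP, beside the same 14.4% of all genes. Of 7 germ cell genes tested, none was called in any comparison of groups, where at most 14.4% of all genes were called. The part of these markers in the changes of PRDM14, L1TD1, SALL4 and LIN28A was not tested.

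Of 25 tested PRDM, SALL, SOX and POU relatives and CFC1 genes, 0 were called between ISL1 OE and BFP in ISL1 KO, PAX6 KO and WT cells (at most 0.424% of all genes). In PDX1 KO cells, where 14.4% of all genes were called, PRDM6 was higher (1.45 ± 0.37, adjusted p = 0.0176) and SOX1 lower (-1.72 ± 0.46, adjusted p = 0.0213) with ISL1 OE. Against WT BFP, 4 relatives were higher and 2 lower in PDX1 KO BFP, 2 were higher and 1 lower in ISL1 KO BFP, and 2 were higher and 1 lower in PAX6 KO BFP, where 11.4%, 6.53% and 6.65% of all genes were called. Beside SOX1 and SOX21, the higher ones were POU2F2 in PAX6 KO (3.15 ± 0.63, adjusted p = 0.00736) and PDX1 KO (2.87 ± 0.62, adjusted p = 0.00638), PRDM16 in ISL1 KO (1.31 ± 0.33, adjusted p = 0.0233) and PDX1 KO (1.32 ± 0.33, adjusted p = 0.0143), and SOX3 in PDX1 KO cells (2.81 ± 0.82, adjusted p = 0.0351). POU3F1 was lower in PDX1 KO cells (-2.21 ± 0.62, adjusted p = 0.0286). PRDM6 was lower than in WT BFP in all 3 knockouts, by -2.57 ± 0.37 with PDX1 lost, -1.46 ± 0.36 with ISL1 lost and -1.28 ± 0.36 with PAX6 lost. Of 17 tested genes of the NODAL and activin pathway, for which TDGF1 is a co-receptor, 0 were called between ISL1 OE and BFP in any genotype. In the BFP libraries the type I receptor ACVR1C was lower in ISL1 KO (-3.29 ± 0.28, adjusted p = 3.63e-06), PAX6 KO (-2.50 ± 0.27, adjusted p = 6.65e-05) and PDX1 KO (-1.63 ± 0.27, adjusted p = 0.00113) than in WT cells, and so was the inhibitor SMAD7. These knockout comparisons share the WT BFP libraries.

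Libraries were read on lanes 1 to 4 (16 libraries) or 5 to 8 (5 libraries, WT BFP replicate 1 among them). Within the first lane set alone the PRDM14 difference kept its size, at 4.59 ± 0.85 in ISL1 KO, 0.97 ± 0.76 in PAX6 KO, 2.17 ± 0.79 in PDX1 KO and 3.79 ± 1.14 in WT cells, but none was called (adjusted p = 0.156, 0.756, 0.183 and 1). The second lane set held too few libraries for a comparison. With the lane set as a term over all libraries, 1 call on the set was lost, LIN28A in ISL1 KO cells (adjusted p = 0.0527).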

How the data were processed

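Bulk RNA of H1-derived islet-like cells was amplified (SMART-Seq v4) before library construction with a KAPA kit, per the labels' protocols; this chemistry marks neither strand nor molecules, so intervals and tests cannot separate reads from molecules and antisense genes can share counts. The authors deposited estimated counts per gene, library and lane, from reads aligned to GRCh38 with STAR (listed as 1.6.1) per the submitters' processing notes; the sources used here do not name the counting program. They also deposited TPM per gene and lane, and estimated counts per transcript. Another 12 columns (3 libraries) matched no sample's labels and were not used, and 1 column name occurred again and was read once.

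For each library the estimated counts of its 4 lanes were added and rounded, giving 40959467 to 66818614 counts; TPM was averaged over lanes. Genes were tested with edgeR 4.0.16 (R 4.3.3): TMM scaling, filterByExpr, 1 mean for each of 8 groups, quasi-likelihood F test, Benjamini-Hochberg adjustment over 22184 genes, called under 0.05. In a simulation of ISL1 KO ISL1 OE against ISL1 KO BFP over 21383 genes, it called 6 of 100 genes changed by 1 and 100 of 100 changed by 3 on the log2 scale, with 5 false calls. The simulation gave every gene the same dispersion, changed no genes of low count and held no library that stood apart. It therefore does not give the power of the comparisons reported here. DESeq2 1.42.0 was an alternative. The design names biological replicates. Same-numbered PAX6 KO libraries deviated together (correlations 0.176, 0.382 and 0.346), and less strongly those of ISL1 KO cells (0.17, 0.0992 and 0.307). In the other comparisons the correlations ran from -0.271 to 0.264. No label states that the number pairs libraries, so it was fitted as a block only in an alternative. Both PAX6 KO replicate 1 libraries were read on lanes 5 to 8 and the others on lanes 1 to 4. Lane set and pairing cannot be told apart for replicate 1. Replicates 2 and 3 share a lane set, but their deviations are from group means that include replicate 1.

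The genes and lists were chosen with earlier results of these data known. One gene of the wider pluripotency list is not reported here. Named are the 10 genes, up to 4 genes of each list by smallest adjusted p, copies and neighbours with any count, and the 3 genes most correlated over libraries among 15360 with a mean log2 CPM of at least 0; of POU5F1 and TDGF1, which had few counts, none is named. Further list genes (such as PODXL, CBFA2T2 and HMGA1) were named after their values were seen, and the lane alternatives were likewise added after seeing the data. RefSeq promoters were read for 5 of the 10 genes. Chromosome 8 was left out of that search, so the promoter of PRDM14 was not looked at. Transcript shares are of the gene's estimated count where it was at least 30; for DNMT3B the annotated transcripts covered 56.3% to 94.0% of it, and no share is given. A count of 3 was taken as the detection floor.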

Additional observations from a re-analysis of the deposited data

Results flagged for a closer look

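LIN28A differed in opposite directions in different genotypes, without overlap of the groups: it was higher with ISL1 OE than with BFP in ISL1 KO cells (log2 difference 1.32) and in WT cells (0.49), and lower in PDX1 KO cells (-0.69). The last 2 differences were not called, and the difference between the effects was not called where it was tested (PDX1 KO minus WT, -1.17 ± 0.43, adjusted p = 0.179; ISL1 KO minus WT, 0.83 ± 0.40, adjusted p = 1); ISL1 KO against PDX1 KO was not tested. PRDM14 responded to the vector less in PAX6 KO than in WT cells in the 19-library fit (difference of effects -2.72, adjusted p = 0.0268), beside a BFP level of 20.6 to 32.0 CPM in PAX6 KO and 2.90 to 3.60 CPM in WT cells.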

How the results depend on the processing

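Counts of calls depended on the setting more than the sizes did. Counts of all genes called are given first, in the order ISL1 KO, PAX6 KO and PDX1 KO BFP against WT BFP (1449, 1476 and 2529 with 21 libraries), the same knockouts among ISL1 OE libraries (916, 946 and 173), ISL1 OE against BFP in ISL1 KO, PAX6 KO, PDX1 KO and WT cells (94, 92, 3200 and 8), and the vector effect minus that in WT for the 3 knockouts (1, 0 and 303). DESeq2 called 2540 and 2545 in ISL1 KO and PAX6 KO BFP, 1959, 1868 and 670 among ISL1 OE libraries, 388, 486, 5038 and 63 between vectors, and 21, 10 and 1192 differences of effects. Of the set it called 2 in ISL1 KO BFP, 4 in ISL1 KO and 1 in WT cells between vectors, and with DESeq2's size factors in edgeR 1 was called in ISL1 KO BFP. Without both libraries that stood apart, 6541, 6613 and 7655 genes were called among BFP libraries, 5445, 3324 and 1817 among ISL1 OE libraries, 1361, 1384 and 388 between vectors in ISL1 KO, PAX6 KO and WT cells, and 72, 13 and 753 differences of effects; the set's counts were then 4 in ISL1 KO BFP and in PDX1 KO BFP, 2 in each knockout with ISL1 OE, 5, 2 and 1 between vectors in ISL1 KO, PAX6 KO and WT cells, and 1 for the PAX6 KO difference of effects. Fitting the compared groups alone gave 5752, 4903 and 6632 among BFP libraries, 5650, 36 and 0 among ISL1 OE libraries, 1461, 0, 0 and 281 between vectors, and 99 and 0 for the ISL1 KO and PDX1 KO differences of effects, with 4 of the set in ISL1 KO BFP, 2, 0 and 0 among ISL1 OE libraries and 5, 0 and 1 between vectors in ISL1 KO, PDX1 KO and WT cells. Scaling by library size alone gave 101 in PDX1 KO ISL1 OE against WT ISL1 OE, 55 and 2110 between vectors in PAX6 KO and PDX1 KO cells, 0 and 171 for the ISL1 KO and PDX1 KO differences of effects, and 1 of the set in PDX1 KO BFP. With no filter, 13 genes and 1 of the set were called between vectors in WT cells. The 2 lane alternatives were chosen after seeing the data. Lanes 1 to 4 alone gave 75, 27 and 47 among BFP libraries, 288, 167 and 0 among ISL1 OE libraries, 4, 0, 189 and 0 between vectors, and 0 and 2 for the ISL1 KO and PDX1 KO differences of effects, with 0 of the set in each comparison except SOX2 in PAX6 KO ISL1 OE; fewer libraries were fitted there. The lane term gave 108 genes in PDX1 KO ISL1 OE against WT ISL1 OE and 1 of the set in ISL1 KO cells between vectors. The replicate block takes PDX1 KO ISL1 OE replicate 4, alone in its number, out of the spread. Between vectors in PAX6 KO cells, where same-numbered libraries deviated together, it gave 662 genes and 2 of the set. In the other comparisons no correlation of same-numbered libraries was above 0.307 (0.17, 0.0992 and 0.307 in ISL1 KO cells). There the block gave 3164, 3443 and 4586 among BFP libraries, 2405, 1832 and 749 among ISL1 OE libraries, 478, 566 and 39 between vectors in ISL1 KO, PDX1 KO and WT cells, and 157 for the PDX1 KO difference of effects, with 3 of the set in ISL1 KO BFP, 2 in PDX1 KO ISL1 OE, 4 in ISL1 KO and 1 in WT cells between vectors. Leaving out 1 library gave 450 to 2816, 277 to 3012 and 771 to 4046 genes among BFP libraries, with 0 to 2, 0 to 2 and 1 to 3 of the set. Among ISL1 OE libraries it gave 240 to 2051, 217 to 1885 and 0 to 8709 genes, with 0 to 1, 0 to 1 and 0 to 4 of the set. Between vectors it gave 20 to 357, 17 to 518, 718 to 10860 and 0 to 50 genes, with 1 to 3, 0 to 0, 1 to 3 and 0 to 1 of the set. For differences of effects it gave 0 to 2, 0 to 0 and 12 to 8268 genes, with 0, 0 and 0 to 2 of the set. The highest of these counts came without PDX1 KO ISL1 OE replicate 2 or 4 in all comparisons but the 2 differences of effects with at most 2 genes. The lowest for the BFP comparisons came without WT BFP replicate 1, and those for the ISL1 OE comparisons without WT ISL1 OE replicate 1 or 2. Of the 13 log2 changes followed across settings, 1 turned round, PRDM14 in PDX1 KO cells without ISL1 OE replicate 2 (-0.39, adjusted p = 0.482; leaving out other libraries gave values up to 3.41, without ISL1 OE replicate 4); leaving out 1 library kept side and direction in 247 of the refits, ended a call in 23 and made one in 2. The causes of these shifts were not tested. At 40959467 or more gene counts per library, NANOG had 3 counts or fewer in 16 and TDGF1 in 14 of 21 libraries. Over the 21 libraries NANOG was not tested and TDGF1 was called in no comparison. TDGF1 had 16, 9 and 11 counts in PAX6 KO ISL1 OE and 0 counts in both WT ISL1 OE libraries, a difference near the floor that was not called.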
